A study of Homo sapiens with 14 samples.

Results

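The AP-1 and EGR immediate early factors are the 3 JUN genes (JUN, JUNB, JUND), the 4 FOS genes (FOS, FOSB, FOSL1, FOSL2), EGR1, IER2 and IER3. They were taken as a fixed list of symbols and matched to Ensembl identifiers, which gave 10 of the 61533 genes in the count table. Of these, 9 passed the filter on low counts and were among the 16056 genes tested. IER3 did not pass, with 30 counts over all libraries. PolyA RNA came from SH-EP, a neuroblastoma line of human origin that is long established in culture. The SPARK-ON line is a single clone with n-Myc SPARK-ON below the threshold for phase separation, and per the series design lenalidomide then brings n-Myc into condensates at an unchanged protein concentration. The control line carries n-Myc without SPARK-ON and was included to show what lenalidomide does on its own. Libraries were 3 of SPARK-ON cells with lenalidomide, 3 of SPARK-ON cells in DMSO, 2 of control cells with lenalidomide and 3 of control cells in DMSO, and the labels give neither dose nor time. With 1 clone of SPARK-ON cells, an effect of SPARK-ON and a difference between clones cannot be told apart. Replicates carry numbers only, so p-values measure the spread between these samples, which may be technical.

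Total counts ran from 6614671 to 21511684 per library, and mitochondrially encoded transcripts took 2.27% to 2.84% of them. In a principal component analysis of log2 levels, control DMSO replicate 1 and SPARK-ON lenalidomide replicate 3 stood apart from the others of their groups. SPARK-ON lenalidomide replicate 3 had the lowest total. The 2 control libraries with lenalidomide also differed from each other more than other replicates did, with a chi-square per gene of 14.8, against 2.42 to 4.82 between replicates other than control DMSO replicate 1. By this measure SPARK-ON lenalidomide replicate 3 did not stand apart. It was at 2.42 and 2.75 against the others of its group, which were at 3.15 to each other. MYCN was at 2277 ± 109 and 2508 ± 101 CPM (counts scaled to a common library size by TMM; SD, n = 3 each) in SPARK-ON cells in DMSO and with lenalidomide, and at 2426 ± 292 (SD, n = 3) and 2546 ± 305 (SD, n = 2) in control cells, and it was not called in any comparison; reads of the introduced gene and of the cells' own gene were not separated. All 8 mesenchymal neuroblastoma markers were detected, at a summed 1467 to 2854 CPM. The adrenergic markers summed to 18.6 to 32.3 CPM, with PHOX2A and ISL1 at 0 counts in every library. Epithelial, leukocyte and endothelial markers each summed to at most 2.71 CPM.

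JUN and FOS proteins are basic leucine zipper factors that pair to form AP-1, which binds the DNA element TGACTCA. JUN proteins can pair with each other, whereas FOS proteins need a JUN partner, and FOSL1 and FOSL2 lack the activation domain of FOS and FOSB. Many of these genes are transcribed within minutes of a growth factor signal, through serum response factor bound to CArG boxes, through ETS factors and through CREB or AP-1 itself, and their mRNAs are short-lived. EGR1 is a zinc finger factor induced by the same route, and IER2 and IER3 are small proteins named for their early induction.

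The promoters of 4 members are shown because these genes differed most between the lines or, for EGR1, carry the classical serum response elements. Each sequence is 300 bases from RefSeq on GRCh38.p14, read 5′ to 3′ on the strand of the gene, from 250 bases before the start to 50 after it. The windows are chr1:58783998-58784297 (minus strand) for JUN, chr19:18281573-18281872 (minus strand) for JUND, chr2:28392608-28392907 (plus strand) for FOSL2 and chr5:138465229-138465528 (plus strand) for EGR1. Capitals mark matches, on either strand, to the AP-1 site TGACTCA, the cAMP response element TGACGTCA, its variant TGACATCA, its short core TGACG, the EGR site GCGNGGGCG and the CArG box.
JUN: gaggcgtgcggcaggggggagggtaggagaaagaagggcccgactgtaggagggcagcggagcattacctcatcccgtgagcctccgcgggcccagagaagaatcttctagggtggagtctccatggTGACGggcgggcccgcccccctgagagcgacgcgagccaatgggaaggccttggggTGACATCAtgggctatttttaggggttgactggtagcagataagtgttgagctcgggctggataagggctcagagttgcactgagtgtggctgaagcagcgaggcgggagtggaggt
JUND: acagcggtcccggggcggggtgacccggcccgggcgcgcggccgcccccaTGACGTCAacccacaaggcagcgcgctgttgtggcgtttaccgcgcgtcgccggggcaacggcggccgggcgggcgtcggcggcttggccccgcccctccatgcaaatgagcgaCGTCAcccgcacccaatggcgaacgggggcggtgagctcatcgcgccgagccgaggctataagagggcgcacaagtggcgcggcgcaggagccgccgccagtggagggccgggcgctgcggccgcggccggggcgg
FOSL2: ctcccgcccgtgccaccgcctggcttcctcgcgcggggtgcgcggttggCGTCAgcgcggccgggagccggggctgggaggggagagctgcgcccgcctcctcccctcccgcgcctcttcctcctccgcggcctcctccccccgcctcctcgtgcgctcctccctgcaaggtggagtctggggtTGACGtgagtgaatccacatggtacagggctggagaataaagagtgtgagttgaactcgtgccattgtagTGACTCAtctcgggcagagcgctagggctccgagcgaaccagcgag
EGR1: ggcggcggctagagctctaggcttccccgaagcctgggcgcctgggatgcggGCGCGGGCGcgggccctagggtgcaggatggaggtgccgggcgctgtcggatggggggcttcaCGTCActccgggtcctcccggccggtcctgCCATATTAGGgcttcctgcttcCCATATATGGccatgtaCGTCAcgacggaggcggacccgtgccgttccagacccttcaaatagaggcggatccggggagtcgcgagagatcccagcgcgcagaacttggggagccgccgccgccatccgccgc

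Windows were found for 8 of the 10 members, all but FOSL1 and IER3. The EGR1 window held 2 CArG boxes, at bases -105 to -96 and -83 to -74 from the start, and an EGR site at -198 to -190. A CArG box was found in 1.29% of the 35116 RefSeq promoter windows of the same length and in 1 of the 8 member windows. The AP-1 site was found in 4.95% of all windows and only in FOSL2 among the members, at bases 5 to 11 after the start. JUND alone among the 8 held the complete cAMP response element (1.85% of all windows), at -200 to -193, and JUN alone held TGACATCA (2.61%), at -67 to -60. The short core TGACG, which is also the first part of TGACGTCA, was found in 8 of 8 member windows and in 24.6% of all windows. The E-box CACGTG, a sequence that MYC proteins bind with MAX, was found in 0 of the 8 and in 7.26% of all. The ETS core CCGGAA was found in FOSB and IER2 among the members and in 17.2% of all windows. These matches describe letters in a short window and do not show binding.

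Between the lines, 5 of the 9 tested members were lower in SPARK-ON than in control cells in DMSO and 0 were higher, where 20.4% of all genes tested were called lower and 21.1% higher, 41.6% in all. Called means a Benjamini-Hochberg adjusted p below 0.05 over all genes in edgeR's quasi-likelihood test. The members called were JUN, JUND, FOSL2, EGR1 and IER2, which were 1.82-fold to 3.66-fold lower in SPARK-ON cells. The libraries of the 2 groups did not overlap, with SPARK-ON lower, for these 5 and for FOSB, against 24.6% of all genes. With lenalidomide FOSB was higher in all SPARK-ON libraries, as were 30.4% of all genes. The median change over the 9 members was -0.87 on the log2 scale, and over all genes it was 0.01. With lenalidomide in both lines 6 of the 9 were lower and 0 higher, where 19.7% of all genes were called lower and 39.4% in either direction, and the additional member was FOSL1. In bulk RNA, fewer cells that express a gene and less of its RNA per cell cannot be told apart.

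JUN encodes the AP-1 subunit that activates most strongly as a pair with FOS (ENSG00000177606.8, chr1:58780788-58784327, minus strand, GRCh38; positions of genes here are from GENCODE 29). Its level was 36.1, 32.7 and 35.9 CPM in SPARK-ON cells in DMSO and 36.5, 32.4 and 34.3 CPM with lenalidomide. In control cells it was 132, 125 and 127 CPM in DMSO and 127 and 141 CPM with lenalidomide. All 6 SPARK-ON libraries lay far below all 5 control libraries, and within each line the treatments overlapped. The log2 change between lines in DMSO was -1.87 (SE 0.081, edgeR adjusted p = 2.45e-12), and with lenalidomide it was -1.96 (SE 0.089, edgeR adjusted p = 6.97e-12).

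JUND encodes the JUN protein that is made in most resting cells (ENSG00000130522.6, chr19:18279760-18281622, minus strand). It was at 67.2, 63.2 and 62.8 CPM in SPARK-ON cells in DMSO and at 67.8, 62.8 and 67.2 CPM with lenalidomide. Control cells had 182, 144 and 162 CPM in DMSO and 137 and 172 CPM with lenalidomide. The lines did not overlap, and the control libraries were more widely spread. JUND was 2.53-fold lower in SPARK-ON cells in DMSO (log2 change -1.34, SE 0.096, edgeR adjusted p = 2.78e-09) and 2.34-fold lower with lenalidomide (-1.23, SE 0.11, edgeR adjusted p = 4.23e-08).

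JUNB, a JUN protein that can oppose JUN at some promoters (ENSG00000171223.6, chr19:12791496-12793315, plus strand), did not share this difference. SPARK-ON cells had 39.4, 35.8 and 47.3 CPM in DMSO and 50.04, 51.5 and 41.2 CPM with lenalidomide. Control cells had 60.7, 46.5 and 44.1 CPM in DMSO and 38.1 and 45.4 CPM with lenalidomide. All 4 groups overlapped with at least 1 other, and the highest value was in control DMSO replicate 1. The change between lines was -0.30 in DMSO (95% interval -0.57 to -0.03, edgeR adjusted p = 0.0705) and 0.20 with lenalidomide (edgeR adjusted p = 0.31). In DMSO it passed the threshold without SPARK-ON replicate 3 (-0.42, edgeR adjusted p = 0.0278), without control replicate 3 (-0.39, edgeR adjusted p = 0.0338) and with no filter on low counts (-0.31, edgeR adjusted p = 0.0166). The whole JUNB gene lies within the antisense gene HOOK2, and 259 of its exon bases are shared with HOOK2 exons. HOOK2 had 2670 counts over the 11 libraries against 8355 for JUNB, and it was lower in SPARK-ON cells in DMSO (-0.42, SE 0.12, edgeR adjusted p = 0.0084). The sources used here do not say whether counting used strand, so reads of the pair may not have been separated.

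FOSL2, a FOS-related protein also called FRA-2 (ENSG00000075426.12, chr2:28392448-28417312, plus strand), had the highest mean CPM of the members in both lines. Its level was 91.2, 86.9 and 86.0 CPM in SPARK-ON cells in DMSO, and 111.8, 109.5 and 107.8 CPM with lenalidomide. Control cells had 221, 258 and 253 CPM in DMSO and 281 and 271 CPM with lenalidomide. The 4 groups did not overlap at all, and SPARK-ON cells in DMSO were the lowest. Between the lines FOSL2 was 2.77-fold lower in SPARK-ON cells in DMSO (log2 change -1.47, SE 0.074, edgeR adjusted p = 1.76e-11) and 2.52-fold lower with lenalidomide (-1.33, SE 0.080, edgeR adjusted p = 3.04e-10).

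FOSL1, or FRA-1, is the FOS-related protein most often linked to invasive and mesenchymal cells (ENSG00000175592.9, chr11:65892049-65900573, minus strand). SPARK-ON cells had 49.6, 45.9 and 45.2 CPM in DMSO and 48.3, 49.1 and 42.5 CPM with lenalidomide. Control cells had 50.5, 43.2 and 43.9 CPM in DMSO and 56.5 and 62.8 CPM with lenalidomide. The 2 control libraries with lenalidomide were above all 9 others, which overlapped. The lines differed by 0.03 in DMSO (95% interval -0.16 to 0.22, edgeR adjusted p = 0.814) and by -0.35 with lenalidomide (SE 0.10, edgeR adjusted p = 0.0111). The call with lenalidomide was lost without control lenalidomide replicate 2 (-0.27, edgeR adjusted p = 0.111) and with scaling by library size alone (-0.24, edgeR adjusted p = 0.0624).

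FOS, the classical AP-1 partner of JUN (ENSG00000170345.10, chr14:75278774-75282230, plus strand), and FOSB (ENSG00000125740.14, chr19:45467995-45475179, plus strand) were near the limit of detection. FOS ranged from 0.600 to 2.15 CPM and FOSB from 0.885 to 2.24 CPM over the 11 libraries, where a count of 0 allows 0.143 to 0.441 CPM (3 counts per library, counting error only). FOS overlapped between the groups in each of the 4 pairwise comparisons. The change of FOS between lines in DMSO had a 95% interval of -1.52 to 0.41, and that of FOSB -1.13 to 0.32, so changes of 2-fold lower lie inside both intervals. With lenalidomide the FOSB libraries again did not overlap, but SPARK-ON cells were higher (0.74, 95% interval -0.11 to 1.59, edgeR adjusted p = 0.157). In that comparison the SPARK-ON libraries were all higher for 30.4% of all genes. FOSB lies within the antisense gene ERCC1 without shared exon bases. ERCC1 had 8871 counts over the libraries against 255 for FOSB, and it was lower in SPARK-ON cells (log2 change -1.16, SE 0.11, edgeR adjusted p = 1.05e-07 in DMSO; -1.06, SE 0.12, edgeR adjusted p = 1.73e-06 with lenalidomide). The FOSB values may hold reads of ERCC1 introns, which was not tested. The fitted changes of FOSB and ERCC1 between the lines had the same sign in DMSO (FOSB -0.41) and opposite signs with lenalidomide.

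EGR1 (ENSG00000120738.8, chr5:138465490-138469315, plus strand), whose promoter above carries the CArG boxes, was at 10.4, 9.90 and 10.2 CPM in SPARK-ON cells in DMSO and at 9.39, 7.22 and 12.4 CPM with lenalidomide. Control cells had 16.4, 22.2 and 18.5 CPM in DMSO and 14.9 and 18.4 CPM with lenalidomide. The lines did not overlap. EGR1 was 1.87-fold lower in SPARK-ON cells in DMSO (log2 change -0.90, SE 0.16, edgeR adjusted p = 0.000155) and 1.79-fold lower with lenalidomide (-0.84, SE 0.18, edgeR adjusted p = 0.00128).

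IER2, a short nuclear protein (ENSG00000160888.7, chr19:13150415-13154908, plus strand), was at 10.6, 11.3 and 11.1 CPM in SPARK-ON cells in DMSO and at 9.75, 11.1 and 8.68 CPM with lenalidomide. Control cells had 25.3, 18.4 and 16.4 CPM in DMSO and 18.1 and 23.5 CPM with lenalidomide. Again every SPARK-ON library was below every control library. The change was -0.87 in DMSO (SE 0.16, edgeR adjusted p = 0.000192) and -1.06 with lenalidomide (SE 0.18, edgeR adjusted p = 0.000106). IER3, linked to survival signalling (ENSG00000137331.12, chr6:30743199-30744554, minus strand), had between 0 and 7 counts per library, with 0 in both control libraries with lenalidomide and in SPARK-ON lenalidomide replicate 3, and was not tested.

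**Figure D1:**
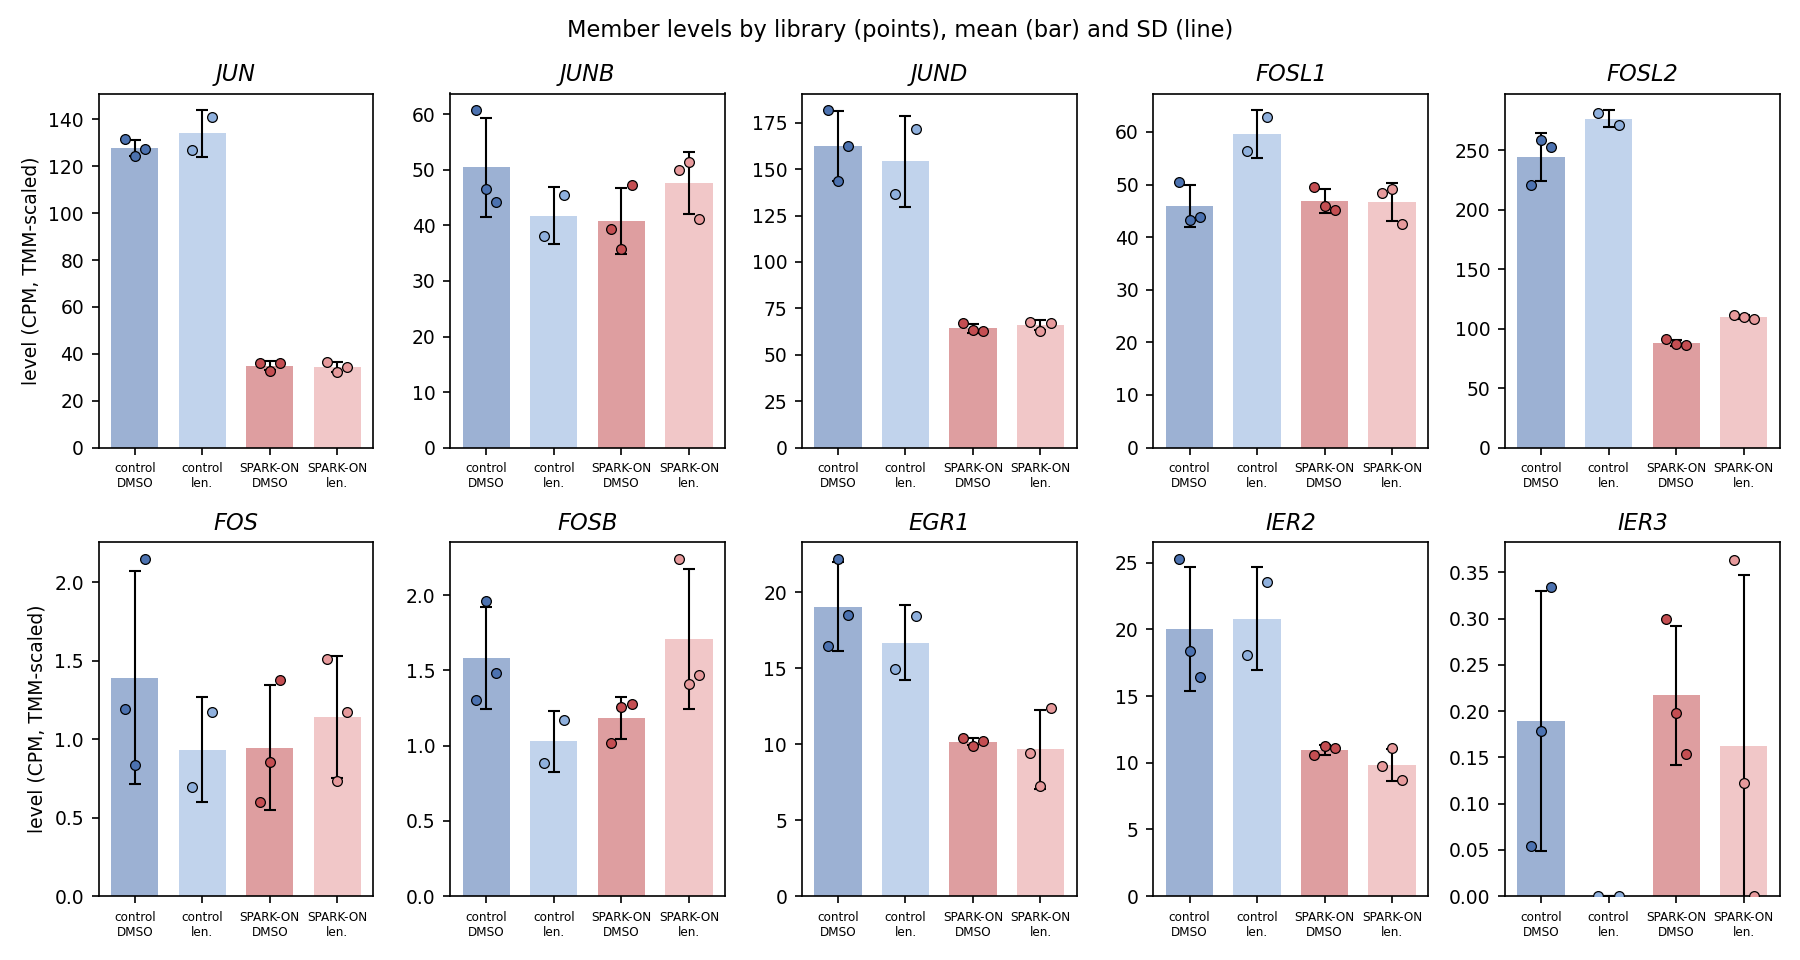
Level of each member in CPM (vertical axis, TMM-scaled, one scale per gene, starting at 0) in the 4 groups; points are libraries, bars means and lines SD. JUN, JUND, FOSL2, EGR1 and IER2 are lower in all SPARK-ON libraries than in all control libraries, whereas JUNB and FOSL1 are at similar heights in DMSO; FOS, FOSB and IER3 are at most 2.24 CPM.

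Beside the difference in JUN, JUND, FOSL2, EGR1 and IER2, the summed mesenchymal markers were 1467 to 1510 CPM in SPARK-ON and 2742 to 2854 CPM in control cells in DMSO. With lenalidomide the ranges were 1524 to 1659 and 2843 to 2844 CPM. Of the 8 markers 2, CD44 and VIM, were lower, 1 was higher and 5 were not called in DMSO, and none was at 0 in all libraries. In DMSO CD44 had 66502 counts in control and 25639 in SPARK-ON cells, and VIM 67914 and 26821, so these abundant genes weigh heavily in the sum. The median log2 change over the 8 was -0.03, and 4 of the 8 changes were positive. The adrenergic sum was 27.7 to 32.3 CPM in SPARK-ON and 18.9 to 20.4 CPM in control cells in DMSO. The part of these markers in the result was not tested.

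Per exon length, JUND was the highest member in every group, and in DMSO it was at 34.6 ± 1.31 RPKM (CPM per kilobase of exon) in SPARK-ON and 87.3 ± 10.2 RPKM in control cells (SD, n = 3 each). In control cells in DMSO it was followed by JUN at 36.1, FOSL2 at 34.1, JUNB at 27.7 and FOSL1 at 24.3 RPKM, and each of these 4 overlapped with its neighbour in this order. IER2 at 6.52 and EGR1 at 6.07 RPKM overlapped with each other, and FOS at 0.430, FOSB at 0.285 and IER3 at 0.139 RPKM were the lowest. In SPARK-ON cells in DMSO the order was FOSL1 at 24.8 and JUNB at 22.4 RPKM, which overlapped, then FOSL2 at 12.3 and JUN at 9.86 RPKM, which did not. IER2 and EGR1 followed at 3.57 and 3.24 RPKM without overlap, before FOS, FOSB and IER3 at 0.292, 0.213 and 0.160 RPKM, where neighbours overlapped. With lenalidomide FOSL2 at 38.6 and JUN at 37.9 RPKM followed JUND in control cells and overlapped, and in SPARK-ON cells JUN at 9.72 RPKM was again below FOSL2 at 15.3 RPKM, without overlap.

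The make-up of both families differed between the lines. The summed JUN family level was 66.9 ± 3.61 RPKM in SPARK-ON and 151 ± 15.4 RPKM in control cells in DMSO (SD, n = 3 each). JUNB made up 33.5% ± 3.27 of that sum in the SPARK-ON line and 18.3% ± 1.71 in the control line, while JUN made up 14.7% ± 0.261 and 24% ± 1.73. JUND made up 51.8% ± 3.10 and 57.7% ± 1.6. In the FOS family, at 37.7 ± 1.5 and 59.1 ± 0.773 RPKM, FOSL1 made up 66.0% ± 0.662 in SPARK-ON and 41.1% ± 4.16 in control cells, and FOSL2 32.7% ± 0.276 and 57.7% ± 4.05. FOS and FOSB together were a minor part in every library, FOS at 0.308% to 1.16% and FOSB at 0.229% to 0.959%. The shares of JUN, JUNB, JUND, FOSL1 and FOSL2 did not overlap between the lines in DMSO, and each gave p = 0.1 in a two-sided exact permutation test, the smallest that 3 against 3 libraries allow.

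**Figure D2:**
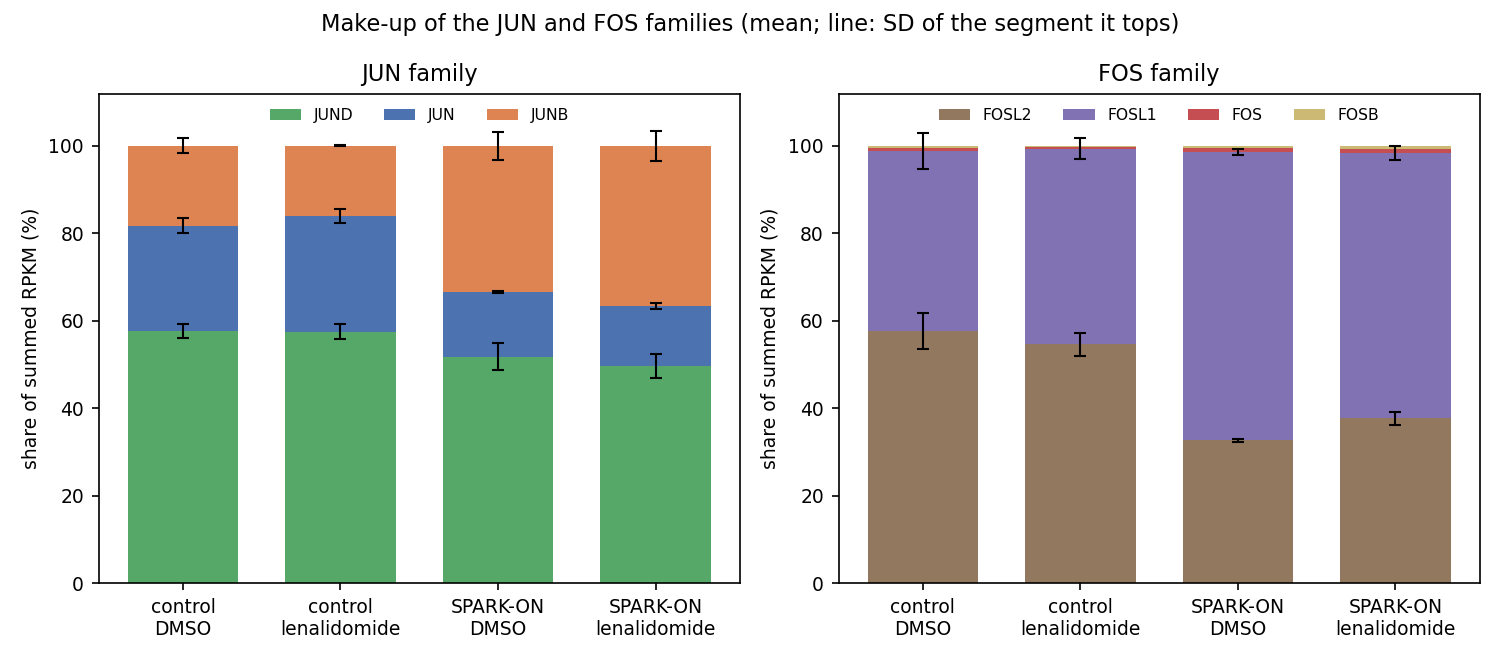
Share of each gene in the summed RPKM of its family (vertical axis, percent) in the 4 groups, as stacked means with the SD of each larger segment drawn at its top. JUNB and FOSL1 take a larger share in SPARK-ON cells (33.5% and 66.0% in DMSO) than in control cells (18.3% and 41.1%).

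With lenalidomide 0 of the 9 members were called in SPARK-ON cells, where 0.0685% of all genes were called, and 0 of 9 in control cells, where 0.0436% were. At an unadjusted p below 0.05 there were 1 of 9 in SPARK-ON cells (5.36% of all genes) and 2 of 9 in control cells (4.82%). In limma-voom 0 members were called in either line, where 0.0872% of all genes were called in SPARK-ON cells and 0.0561% in the control line, and DESeq2 called 0 members in the control line (0.149% of all genes). In SPARK-ON cells this was FOSL2, whose mean was 88.0 ± 2.77 CPM without and 109.7 ± 1.98 CPM with the compound (SD, n = 3 each). All 3 treated libraries were above all 3 in DMSO, as for 9.62% of all genes, and the change was 0.32 (1.25-fold, SE 0.074, 95% interval 0.16 to 0.47, edgeR adjusted p = 0.184). Fitted on the 6 SPARK-ON libraries alone it was 0.32 (SE 0.053, edgeR adjusted p = 3.38e-05), 1 of 9 members called where 2.6% of 14652 genes were. FOSL2 was also called by DESeq2 (0.32, adjusted p = 0.0263), which called 0.311% of all genes. In edgeR without the pair of libraries that stood apart, a choice made after seeing the data, it was called at 0.33 (adjusted p = 0.0289), where 0.234% of 15837 genes were.

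None of the other 8 tested members was called in SPARK-ON cells under any alternative run. JUN was at -0.02 (95% interval -0.20 to 0.16), JUND at 0.03 (-0.17 to 0.24) and FOSL1 at 0.0011 (-0.19 to 0.20), and a change of 0.32 lies outside each of these 3 intervals. JUNB was at 0.23 (-0.05 to 0.51), EGR1 at -0.13 (-0.49 to 0.24) and IER2 at -0.14 (-0.49 to 0.22), and FOS and FOSB had intervals wider than 1 on the log2 scale. For FOSB, at few counts, all 3 treated libraries were above all 3 in DMSO (0.55, -0.20 to 1.29), as for 9.62% of all genes. FOSL2 made up 37.7% ± 1.5 of the FOS family with lenalidomide and 32.7% ± 0.276 in DMSO (SD, n = 3 each), and the libraries did not overlap (two-sided exact permutation p = 0.1, the smallest possible). The same held for FOSL1, at 60.7% and 66.0%, and for JUN, at 13.6% and 14.7% of the JUN family. The shares of JUNB, JUND, FOS and FOSB overlapped.

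In control cells FOSL1 went from 45.9 ± 4.01 CPM (SD, n = 3) in DMSO to 59.6 ± 4.48 CPM (SD, n = 2) with lenalidomide, a difference of 0.38 (SE 0.10, 95% interval 0.17 to 0.59, edgeR adjusted p = 0.459). FOSL2 there was at 244 ± 20.2 and 276 ± 7.19 CPM, a change of 0.18 (SE 0.079, 95% interval 0.01 to 0.35, edgeR adjusted p = 1). Both treated libraries were above the 3 in DMSO for both genes, as for 7.69% of all genes. For FOSB, at few counts, both were below the 3 in DMSO (-0.61, 95% interval -1.44 to 0.23), as for 6.86% of all genes. Spread was estimated over both lines together, while the coefficient of variation of FOSL1 was 10.4% in control and 4.69% in SPARK-ON libraries. The intervals given here for control cells may therefore be too narrow. In a model with 1 lenalidomide effect over both lines, also chosen after seeing the data, FOSL2 had a change of 0.25 (SE 0.055, edgeR adjusted p = 0.0687), and FOSL1 0.18 (SE 0.078, edgeR adjusted p = 0.777).

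Whether the lines responded differently was tested directly. No member was called in edgeR, nor was any of the 16056 genes (0%), and limma-voom also called 0 genes; DESeq2 called 3 genes (0.0187%), 0 of them members. At an unadjusted p below 0.05 there were 669 genes (4.17%), among them 3 of the 9 members. JUNB was 0.50 (SE 0.20, 95% interval 0.09 to 0.91) higher in the response of SPARK-ON than of control cells, FOSB 1.15 (SE 0.53, 0.04 to 2.27) higher and FOSL1 -0.38 (SE 0.14, -0.67 to -0.09), with edgeR adjusted p = 1 for each. For FOSL2 the difference was 0.14 (SE 0.11, -0.09 to 0.37).

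**Figure D3:**
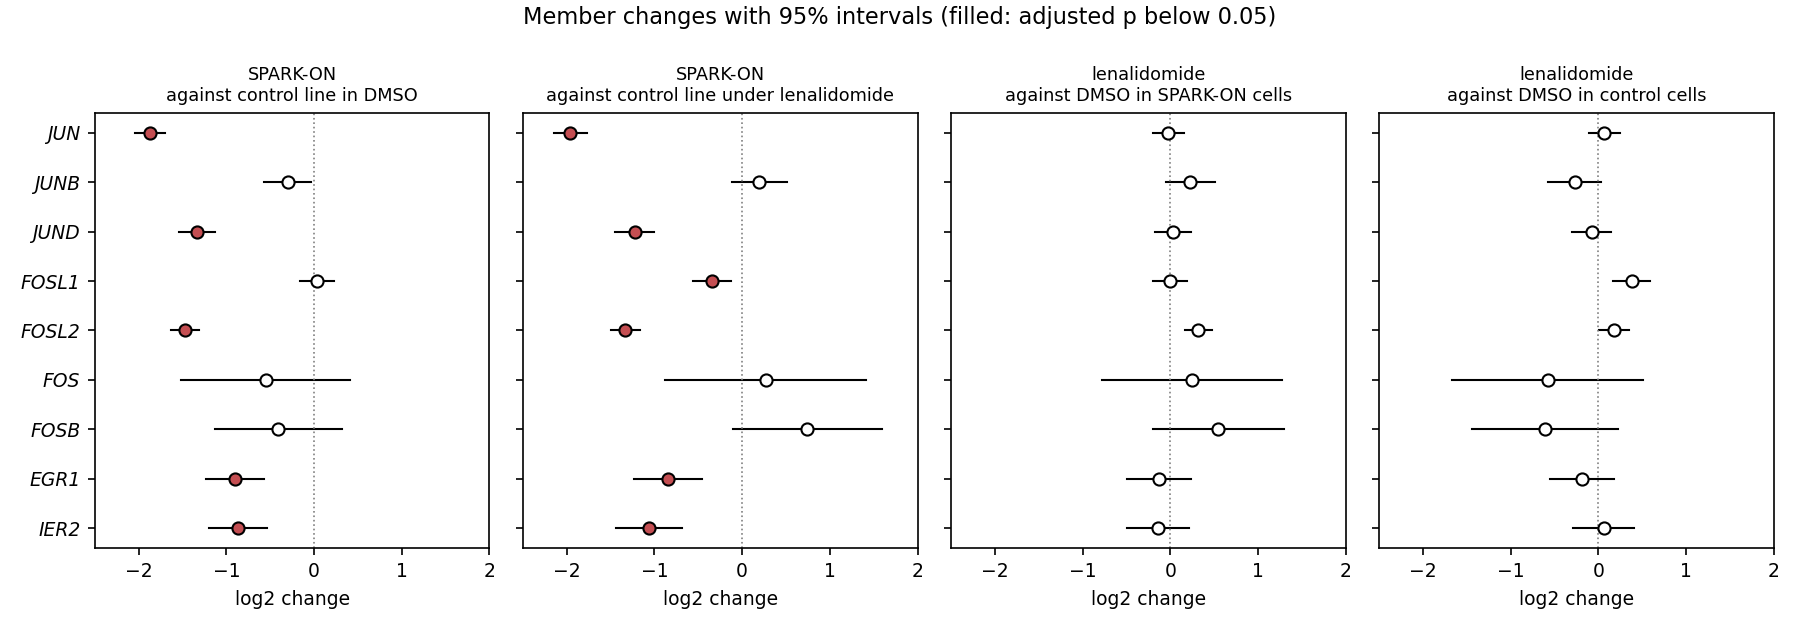
Log2 change (horizontal axis) with its 95% interval for the 9 tested members in the 4 comparisons; filled points have an adjusted p below 0.05. The filled points are in the panels between the lines, 5 in DMSO and 6 with lenalidomide, and the points for lenalidomide against DMSO are open, with FOSL2 at 0.32 in SPARK-ON and FOSL1 at 0.38 in control cells.

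The neighbours of these factors in the pathway were read from 5 lists. Of 28 other immediate early genes 26 were tested, and between the lines in DMSO 4 were higher and 13 lower in SPARK-ON cells, with a median of -0.36, where 21.1% of all genes were higher and 20.4% lower. PHLDA1, an early gene linked to cell survival, was at 101 ± 4.25 CPM in control and 16.1 ± 1.20 CPM in SPARK-ON cells in DMSO (SD, n = 3 each; log2 change -2.66, edgeR adjusted p = 4.92e-14). RHOB, a small GTPase (-1.68, SE 0.090), and the zinc finger factor KLF6 (-1.17, SE 0.093) were lower too, while IER5 went the other way, from 20.9 ± 1.91 to 56.8 ± 5.29 CPM (1.44, SE 0.12). With lenalidomide 6 were higher and 11 lower, where 19.7% of all genes were called in each direction, among them SGK1, a kinase (-1.57, SE 0.15). RHOB was the single gene of this list called with lenalidomide in control cells, from 96.1 ± 6.88 CPM (SD, n = 3) to 139 ± 6.41 CPM (SD, n = 2; 0.54, edgeR adjusted p = 0.0469). That call was lost in a fit of only the groups compared and without either control lenalidomide library, where 0 genes were called. It was also lost with the replicate block, where 0 genes were called higher. In SPARK-ON cells RHOB was at 29.9 ± 0.471 CPM in DMSO and 40.2 ± 4.57 CPM with lenalidomide (0.44, edgeR adjusted p = 0.119).

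Of the 16 tested genes for bZIP partners and competitors of AP-1, 3 were higher and 4 lower in SPARK-ON cells in DMSO, and 1 and 5 with lenalidomide. These 7 and 6 of 16 are near the share over all genes, 41.6% in DMSO and 39.4% with lenalidomide. MAF, a large bZIP factor, was lower (27.7 ± 2.11 CPM in control, 4.88 ± 0.640 CPM in SPARK-ON cells in DMSO; -2.5, SE 0.13), as were CREB5 (-1.47, SE 0.18) and NFE2L2, the oxidative stress factor NRF2 (-0.35, SE 0.076). MAFG, a small MAF partner without an activation domain, was higher (1.0, SE 0.073). Of 25 genes of the kinase and serum response factor route that induces the members, 2 were higher and 6 lower in DMSO, and 1 and 6 with lenalidomide. These included the ERK kinase MAP2K2 (-0.72, SE 0.082), the ERK-activated kinase RPS6KA3 (-0.69, SE 0.080) and the ETS factor ELK3 (-0.43, SE 0.078), while RPS6KA1 was higher (0.39, SE 0.087). In DMSO 17 of the 25 genes of the route were not called, where 41.6% of all genes were called, and its median change was -0.08.

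The list of corepressors and textbook targets of EGR1 is described by single genes. EGR2, also on the early gene list, was called lower in SPARK-ON cells in DMSO, at 0.181 ± 0.160 CPM in SPARK-ON and 1.53 ± 0.251 CPM in control cells, 9 against 86 counts over 3 libraries each. The corepressors NAB1 (-0.23, SE 0.11) and NAB2 (-0.12, SE 0.11) were not called. With lenalidomide CDKN1A, the cell cycle inhibitor p21, was higher, at 50.5 ± 2.22 CPM in SPARK-ON (SD, n = 3) and 28.7 ± 3.86 CPM in control cells (SD, n = 2; 0.82, SE 0.11).

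Textbook AP-1 targets moved in both directions. Of the 19 tested, 12 were higher and 5 lower in SPARK-ON than in control cells in DMSO, with a median of 0.85, where 21.1% of all genes were higher and 20.4% lower. The counts with lenalidomide were 12 and 5 as well, with a median of 0.92, where 19.7% of all genes were called in each direction. The medians were the same with MMP1 and MMP9, where these had 0 counts in control cells, set at the bound that 3 counts over the group allow. SPP1, which encodes osteopontin (27.8 ± 0.731 CPM in control, 80.5 ± 6.43 CPM in SPARK-ON cells in DMSO; 1.53, SE 0.084), and PLAU, the urokinase protease (1.05, SE 0.082), were higher. CD44, a hyaluronan receptor, was lower, at 1185 ± 16.1 CPM in control and 500.1 ± 14.4 CPM in SPARK-ON cells (-1.24, SE 0.060), and vimentin (VIM) was lower too (-1.21, SE 0.078); both are also on the mesenchymal marker list. PLAU was the one gene of the 5 lists called with lenalidomide in SPARK-ON cells, from 49.6 ± 2.09 to 70.4 ± 2.06 CPM (0.51, SE 0.080, edgeR adjusted p = 0.0162). That call was lost without SPARK-ON lenalidomide replicate 2 and without any single SPARK-ON DMSO library, where 0 genes were called. In control cells PLAU was at 23.9 ± 1.29 and 30.1 ± 0.348 CPM (0.33, edgeR adjusted p = 0.55).

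**Figure D4:**
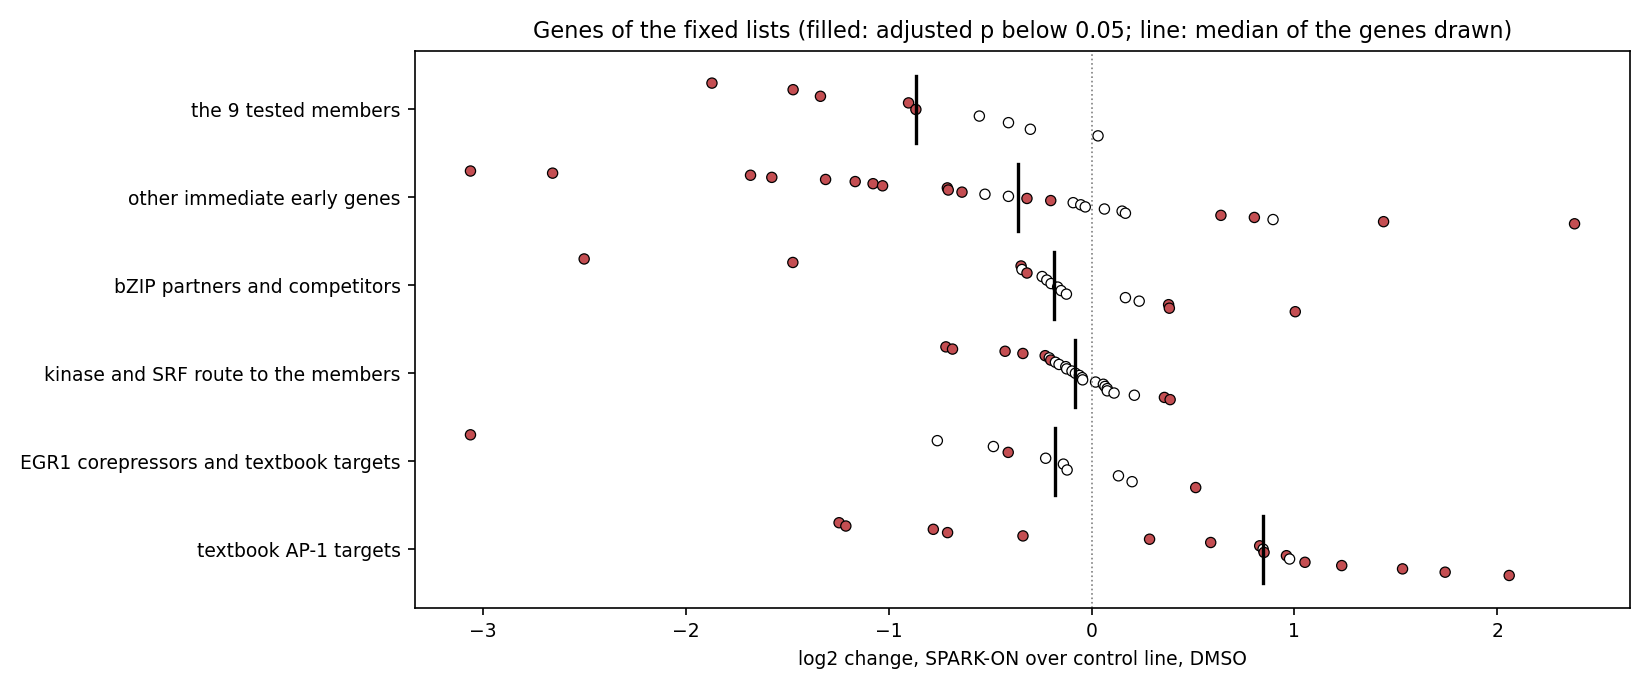
Log2 change of SPARK-ON over control cells in DMSO (horizontal axis) for the tested genes of the members and the 5 lists; each point is a gene, filled where the adjusted p was below 0.05, and black lines are medians of the genes drawn. MMP1 and MMP9, with 3 counts or fewer over the control libraries in DMSO, are not drawn; the members have a median of -0.87 and the 17 textbook AP-1 targets drawn lie mostly to the right, also at a median of 0.85.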

How the data were processed

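RNA sequencing counts of 11 libraries in 4 groups were used. The authors deposited whole-number raw counts for each gene, not normalized. Per the submitters' processing notes, FastQC, fastp, HTSeq, edgeR and hg38 were used. The versions, aligner, strand setting and annotation release are not given in the sources used here. Another 3 columns could not be matched to the labelled baseline samples and were not used, so comparisons with baseline were not made.

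The analysis used edgeR 4.0.16 under R 4.3.3, with filterByExpr (minimum count 10), TMM scaling, glmQLFit on a one-way layout of 4 groups (7 residual degrees of freedom) and two-sided glmQLFTest, with Benjamini-Hochberg adjustment over 16056 genes and a threshold of 0.05. CPM use the TMM-scaled size of the filtered library, and RPKM use exon lengths of GENCODE 29, matched without version. Of 61533 identifiers, 61415 matched a gene name. SD is over libraries, and SE is that of the log2 change. The procedure was tested on data simulated with the same spread per gene in all groups. That setting does not cover lines that differ in spread. The common biological coefficient of variation was 9.40%, but 4.71% over the 6 SPARK-ON and 12.9% over the 5 control libraries.

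Members and lists were chosen with earlier results of these data known. All members are named; other genes are at most 4 per list and comparison, by smallest p among those called, and genes that vary most like a member. Some genes that this rule gives are not reported here. NAB1 and NAB2 were named after their values were seen. Alternatives were other scalings, filters and thresholds, a replicate block, a fit of only those groups compared, limma-voom 3.58.1, DESeq2 1.42.0 and omission of each library.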

Additional observations from a re-analysis of the deposited data

How the results depend on the processing

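The counts of members called between the lines, 5 in DMSO and 6 with lenalidomide, stayed within 1.5 times under every alternative run, and JUN, JUND, FOSL2, EGR1 and IER2 were called lower in all of them. For lenalidomide in SPARK-ON cells the count of 0 became 1 with DESeq2, 1 with only the groups compared and 1 without the 2 libraries that stood apart (added after seeing the data), and the member was FOSL2 each time. Why these fits differ was not tested, but the common coefficient of variation of the SPARK-ON libraries is below that of all 11. Leaving out single SPARK-ON libraries gave FOSL2 an edgeR adjusted p of 0.457 to 0.866. All genes called there were 11, and 50 with DESeq2, 381 with only the groups compared and 37 without the 2 libraries. Scaling by library size alone moved the median of all genes between the lines by 0.09 in DMSO and 0.11 with lenalidomide, and the calls from 21.1% higher and 20.4% lower to 26.5% and 15.9% in DMSO, and from 19.7% each to 25.2% and 14.9% with lenalidomide. The FOSL1 call with lenalidomide in both lines was also lost at a threshold of 0.01. JUNB in DMSO was -0.15 to -0.42 over the alternatives. Same-numbered libraries did not deviate together, but with groups of 2 or 3 libraries this cannot decide whether the replicate numbers pair them. With the replicate block the members called were 5 and 6 between the lines. They were 0 for lenalidomide in SPARK-ON cells, in control cells and for the difference between lines. FOS was not tested under the stricter filter. Alternatives for the comparisons with baseline were not run. Depth limits FOS, FOSB and IER3, at 2.24 CPM or less.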

Other observations

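The genes whose levels followed a member most closely within the lines were read from log2 CPM after the mean of each line was subtracted, over 11 libraries and 10637 or 10638 genes of at least 5 CPM. These correlations share libraries and depth, include the pair of libraries that stand apart, and are given as a description. Differences between lenalidomide and DMSO were not subtracted, so genes that differ alike between treatments also correlate. EGR1 was followed most closely by DDX24 (r = 0.931), DYM (r = 0.900) and SCAI (r = 0.894). For JUNB the closest were PLPP3 (r = 0.943), TMEM80 (r = 0.924) and DPP3 (r = 0.915). For FOSB they were CSRNP1 (r = 0.915), HPSE (r = 0.908) and ACAD10 (r = 0.904), and for FOS, at few counts, TRMT2B (r = 0.953), ADAM11 (r = 0.897) and FKBP10 (r = 0.884). FOSL2 was added after its values were seen, and its closest genes were THBS1 (r = 0.970), STRA6 (r = 0.962) and DIO2 (r = 0.960).

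In control DMSO replicate 1, JUNB was at 1.29 times and IER2 at 1.24 times the mean of the 5 control libraries, while FOSL2 was at 0.86 times it.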
